A study of Homo sapiens with 2 samples.

Results

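Metallothioneins are small cysteine-rich proteins that bind zinc and copper, and SLC30A1 (also called ZnT1) is the plasma membrane transporter that carries zinc out of the cell. The 8 genes described here are MT1E, MT1F, MT1G, MT1H, MT1M, MT1X, MT2A and SLC30A1. Their members on the array were all probe sets that the platform annotation pairs with 1 of these genes alone, which gave 14 of 54675 probe sets. They were taken by name and not by a rule on their values, though with earlier results of these data known. The data are 2 arrays, 1 for each of 2 cultures of the human colorectal cancer line HCT116. The first culture, HCT116-GFP, has the wildtype genotype in its labels, and the second, HCT116-CPEB4, carries CPEB4 over-expression from a lentiviral system. CPEB4 is an RNA-binding protein that regulates poly(A) tails and translation. Both cultures were grown in RPMI-1640 with 10% FCS and 1% penicillin-streptomycin, at 37 °C and 5% CO2, and no metal or other agent is named for either. Nothing in the labels says whether each line is a clone or a pool, or whether the HCT116-GFP cells carry a vector of their own. With 1 array a group there is no replicate and no test, and no p-value is given.

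In cells, the transcription factor MTF1 binds zinc and then activates the metallothionein genes and SLC30A1 through short promoter sequences called metal response elements. Metallothioneins then hold the metal in the cytosol and SLC30A1 exports it, so that their transcripts are widely used as a reading of free zinc. Metallothionein genes also respond to copper, cadmium, oxidative stress and glucocorticoids. In the gut, metallothioneins of the epithelium buffer dietary zinc.

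The 7 metallothionein members stand in 1 cluster on chromosome 16, and SLC30A1 stands alone on chromosome 1. In the RefSeq gene table the cluster holds 16 metallothionein genes, of which 11 are protein-coding. The RefSeq promoter table held 4 of the 8 members. The 250 bases before the start of each are shown because they were searched for the metal response element. Capitals mark matches to the core of that element, searched as TGCACNC and TGCGCNC on both strands. Each sequence is from build GRCh38.p14 and reads 5′ to 3′ on the strand of its gene. MT2A is at chr16:56608334-56608583 on the plus strand, MT1H at chr16:56669564-56669813 on the plus strand, MT1X at chr16:56682220-56682469 on the plus strand and SLC30A1 at chr1:211579162-211579411 on the minus strand.
MT2A: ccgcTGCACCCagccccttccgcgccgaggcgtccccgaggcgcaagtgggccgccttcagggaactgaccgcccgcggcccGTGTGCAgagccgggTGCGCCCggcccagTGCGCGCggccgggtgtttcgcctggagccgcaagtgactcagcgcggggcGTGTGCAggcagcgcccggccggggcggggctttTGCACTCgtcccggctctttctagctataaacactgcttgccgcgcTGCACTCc
MT1H: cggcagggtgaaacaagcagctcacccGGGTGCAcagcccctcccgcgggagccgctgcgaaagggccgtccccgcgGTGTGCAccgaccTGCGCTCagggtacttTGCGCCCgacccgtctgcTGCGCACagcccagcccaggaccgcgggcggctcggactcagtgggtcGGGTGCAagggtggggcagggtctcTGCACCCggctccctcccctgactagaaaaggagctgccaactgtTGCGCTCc
MT1X: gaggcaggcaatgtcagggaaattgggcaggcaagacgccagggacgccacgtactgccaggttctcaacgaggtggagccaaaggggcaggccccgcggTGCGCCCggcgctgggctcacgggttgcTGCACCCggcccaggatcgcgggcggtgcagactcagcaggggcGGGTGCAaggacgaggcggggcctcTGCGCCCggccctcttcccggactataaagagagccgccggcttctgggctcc
SLC30A1: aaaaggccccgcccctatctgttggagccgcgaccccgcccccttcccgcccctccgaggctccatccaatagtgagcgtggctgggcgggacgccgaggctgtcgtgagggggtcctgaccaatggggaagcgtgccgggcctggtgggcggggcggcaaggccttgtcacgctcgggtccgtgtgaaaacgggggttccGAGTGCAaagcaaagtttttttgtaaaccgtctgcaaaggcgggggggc

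The 3 metallothionein promoters were dense in these matches. MT1H held 8 matches, MT2A 7 and MT1X 4, while SLC30A1 held 1, which began 49 bases before the start. Of 35116 promoters of the same length in the table, 24.8% held at least 1 match and 0.370% held 4 or more. Matches began 78 and 53 bases before the start in both MT1H and MT1X. The match at 53 was of the TGCACNC form in MT1H and of the TGCGCNC form in MT1X. Nearer to the start, MT1H and MT2A each had a match that began 8 bases before it. Of the 20 matches in the members, 2 overlapped a match to another searched motif. The antioxidant response element TGACNNNGC, found in 10.9% of all promoters, was present once each in SLC30A1, MT2A and MT1X. Neither the glucocorticoid element AGAACA (12.4% of all promoters) nor the core of the interferon-stimulated response element (3.02%) was found in the 4 windows. The GC box GGGCGG (42.6%) was in all 4. The hypoxia element core was in MT1X as ACGTG (18.5%) and in SLC30A1 and MT2A as GCGTG (32.2%). These are matches of letters on both strands and not measured binding sites.

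Across both arrays, the intensities had a median of 60.6 for HCT116-GFP and 61.1 for HCT116-CPEB4. The 4 probe sets of CPEB4 itself were not brighter in the sample labelled HCT116-CPEB4, with log2 differences of −1.52 to −0.08. The lowest came from a probe set at 60.1 and 21.0, both under the dim filter of 60.8. The others differed by −0.44, −0.22 and −0.08. The part of the transcript that these probe sets read is not known here, so the direction of every difference rests on the labels. Of 11 colon epithelial markers, 10 were measured above the filter for dim probe sets described below, with 6 above 0, 4 below and 2 higher by 2-fold. EPCAM read 20994 for HCT116-GFP and 20717 for HCT116-CPEB4, KRT18 27352 and 28606, KRT19 28546 and 28311, and CDH1 3709 and 2954. The 2 past 2-fold were dim on the first array: CDX1 read 18.0 and 99.5, and VIL1 read 32.2 and 77.0, with −5.60 at its other kept probe set. LGALS4 was not measured. Markers of other cell types were measured in 1 of 5 for blood (HBB, 328 and 287), 1 of 4 for endothelium (PECAM1, 149.8 and 94.97), 2 of 5 for fibroblasts (COL1A1, 949 and 1292; DCN, 43.2 and 102), 2 of 4 for neurons (SNAP25, 116 and 109; ELAVL4, 55.6 and 89.4) and 3 of 4 for kidney and HEK293 cells (PAX2, 274 and 408; SIX2, 179 and 101; AQP1, 39.9 and 110). DCN and AQP1 were past 2-fold, each from under the filter on the first array, while PTPRC, VWF, CDH5, COL1A2 and COL3A1 were among those not measured. The ratio of 3′ to 5′ signal of the ACTB control, which grows with RNA degradation, was 8.23 for HCT116-GFP and 10.3 for HCT116-CPEB4. That of GAPDH was 0.989 and 1.04. The part of these ratios and markers in the differences below was not tested.

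The metallothionein genes measured above the dim filter read nearly alike on the 2 arrays at their brightest probe sets. No measured member gene differed by 2-fold there. A probe set was kept when the higher of its 2 intensities reached 60.8, the median of all values, which 11 of the 14 member probe sets did. Each gene was read from the brightest of its kept probe sets, and 7 of the 8 genes had one. Of these 7, none was higher and none lower by 2-fold or more, against 3.55% higher and 3.85% lower among all 13704 genes. Bright probe sets seldom passed 2-fold: of all 806 named probe sets with an intensity of 10000 or more, 2 were higher and 0 lower. Under a stricter filter, at the 75th percentile of all values, the shares were 0.473% and 0.165%, with 7 member genes still measured. The count of none is thus not particular to the members. On the log2 scale, the difference of HCT116-CPEB4 minus HCT116-GFP had a median of −0.17 over the 7 genes, against 0.00 over all genes. It was below 0 in 6 genes and above 0 in 1, while 49.9% of all genes lay below 0. The 6 include MT1H and SLC30A1, whose directions are not settled, as given below. Of the 806 bright probe sets, 63.5% lay below 0. In RNA from whole cultures, fewer expressing cells and less RNA per cell cannot be told apart.

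MT2A, the widely expressed MT2 isoform, read 34526 for HCT116-GFP and 30653 for HCT116-CPEB4, the order in which all pairs of intensities are given. The second value was the lower, by a change of −11.2% or a log2 difference of −0.17. This gene has 1 probe set, so nothing within the array checks it.

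MT1X, a widely expressed member of the MT1 group, read 28415 and 24224 at its brighter probe set, 208581_x_at. This was a log2 difference of −0.23, the lowest among the metallothionein members at the gene level. Its other probe set, 204326_x_at, read 19220 and 16934, a log2 difference of −0.18. The 2 probe sets are not 2 clean readings of 1 gene. The annotation pairs 204326_x_at with MT1X, but the accession it lists for that probe set belongs in the RefSeq gene table to MT1L, a transcribed pseudogene of the same cluster.

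MT1E, another MT1 isoform, read 22614 and 20287 at 212859_x_at and 16488 and 14743 at 216336_x_at. The log2 differences were −0.16 at both, only 0.0047 apart. Among the 3621 genes with 2 kept probe sets, the median gap between their differences was 0.33, with an interquartile range of 0.14 to 0.67. MT1E and MT1X, with a gap of 0.05, were thus closer than the lower quartile of all such genes, and so was MT1F at 0.13. All of these probe sets carry the suffix _x_at, described below, and its part in their closeness was not tested.

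MT1F read 14769 and 12967 at 217165_x_at, a log2 difference of −0.19. At its dimmer probe set, 213629_x_at, it read 4022 and 3231, a log2 difference of −0.32. The second is the lowest value of all metallothionein member probe sets and corresponds to a change in intensity of −19.7%.

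MT1H read 19201 and 19044, a log2 difference of −0.01. Of all member probe sets its readings were the closest to each other. After quantile normalization the difference was 0.05 and after loess 0.03, so MT1H has no settled direction.

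MT1G was the exception to the lower readings, and its probe sets disagreed. At 204745_x_at it read 9044 and 9746, a log2 difference of 0.11. At 210472_at it read 4.37 and 37.8, which were both under the dim filter. The log2 difference of 3.11 at the second lies among values where 44.7% of all named probe sets under the filter passed 2-fold in one direction or the other, so it is given as a value only. One probe set of MT1G was therefore bright on both arrays and the other was dim on both.

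MT1M was not measured above the filter. Its only probe set, 217546_at, read 42.2 and 46.9.

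**Figure D1:**
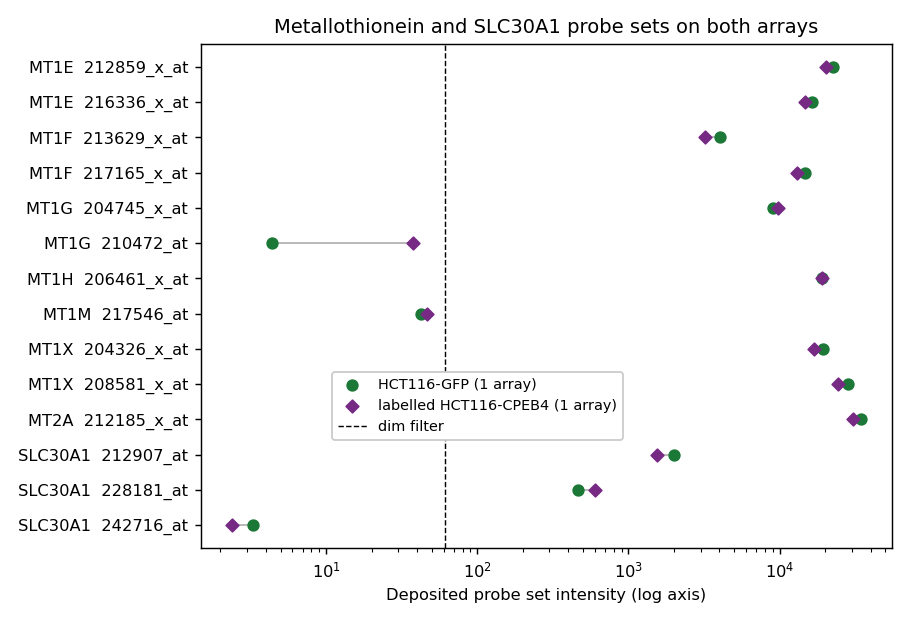
Deposited intensity (log axis) of the 14 member probe sets on the HCT116-GFP array (circles) and the array labelled HCT116-CPEB4 (diamonds), 1 array each, with the dim filter at 60.8 as a dashed line. The 9 metallothionein probe sets with the suffix _x_at read 3231 or more on both arrays, and the 2 without it, of MT1G and MT1M, read under the filter on both.

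The split between bright and dim metallothionein readings followed the probe set suffix. The manufacturer adds _x_at to a probe set when some of its probes match other sequences too, which is common among close paralogs. Of the 11 metallothionein member probe sets, all 9 with this suffix were bright, and the 2 without it, 210472_at of MT1G and 217546_at of MT1M, were dim. No metallothionein gene among the members had a kept probe set without the suffix. A bright reading can thus hold signal of several paralogs, and how much of it belongs to the gene it is named for was not tested. When probe sets with the suffix were left out, SLC30A1 was the 1 member still measured.

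Taken as readings of the family, the 9 probe sets with the suffix had log2 differences from −0.32 to 0.11, with a median of −0.17 and an SD of 0.12 over probe sets, which are not replicates. Of these, 8 lay below 0 and 1 above. Over all 2118 named kept probe sets with the suffix, 1059 lay below 0 and 1059 above.

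Most of the metallothionein probe sets with the suffix were among the brightest on the arrays. All but the dimmer MT1F probe set and the MT1G probe set read 10000 or more on an array. Among all 806 named probe sets with an intensity of 10000 or more, 63.5% lay below 0 and the median log2 difference was −0.06, with an interquartile range of −0.15 to 0.07. The highest intensities on the arrays were 48344 and 45176. Scalings that remove differences tied to brightness moved MT2A, MT1X, MT1E and MT1F toward 0 at their brightest probe sets. MT2A went from −0.17 to −0.03 after quantile normalization and −0.12 after loess, and MT1X from −0.23 to −0.16 and −0.18. MT1E went from −0.16 to −0.11 under both, and MT1F from −0.19 to −0.17 and −0.15. MT1G stayed above 0, at 0.11 and 0.14. The dimmer MT1F probe set, the lowest of the 9, hardly shifted, from −0.32 to −0.32 and −0.31.

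**Figure D2:**
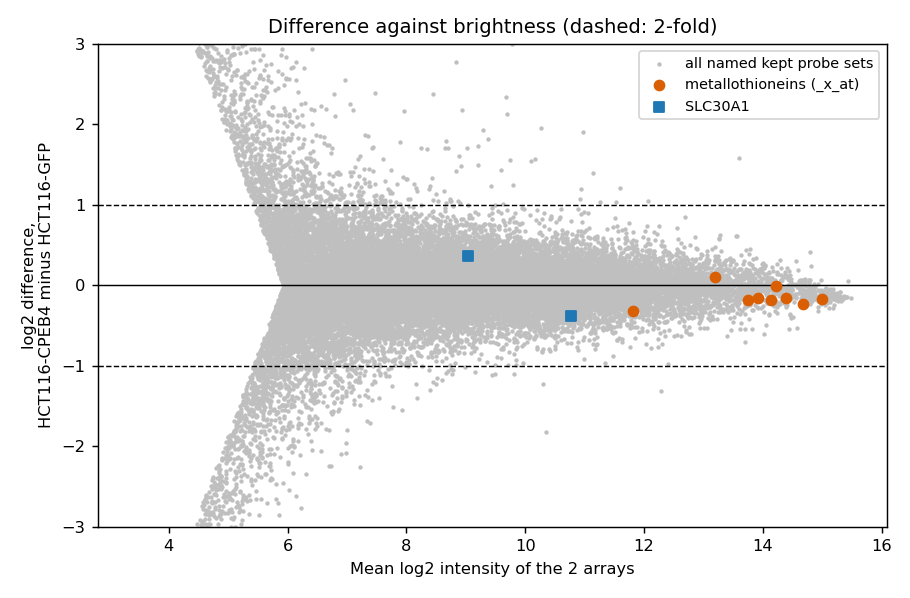
Log2 difference between the arrays (HCT116-CPEB4 minus HCT116-GFP) against mean log2 intensity for the 25010 named kept probe sets, with the 9 metallothionein (circles) and 2 SLC30A1 (squares) probe sets marked. The metallothioneins lie at the bright end, inside the dashed 2-fold lines and mostly just below 0; 279 probe sets beyond a log2 difference of 3 are outside the axis.

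SLC30A1, the zinc exporter that MTF1 controls together with the metallothioneins, has 3 probe sets and none with the _x_at suffix. The brightest, 212907_at, read 1995 and 1534, a log2 difference of −0.38. The second, 228181_at, read 464 and 598, a log2 difference of 0.37. The third, 242716_at, read 3.27 and 2.39 and was under the dim filter. The 2 kept probe sets thus differed in opposite directions by nearly equal amounts, 0.75 apart, and their mean was −0.0065. That gap is above the upper quartile of 0.67 among genes with 2 kept probe sets, and the direction of SLC30A1 is not settled.

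**Figure D3:**
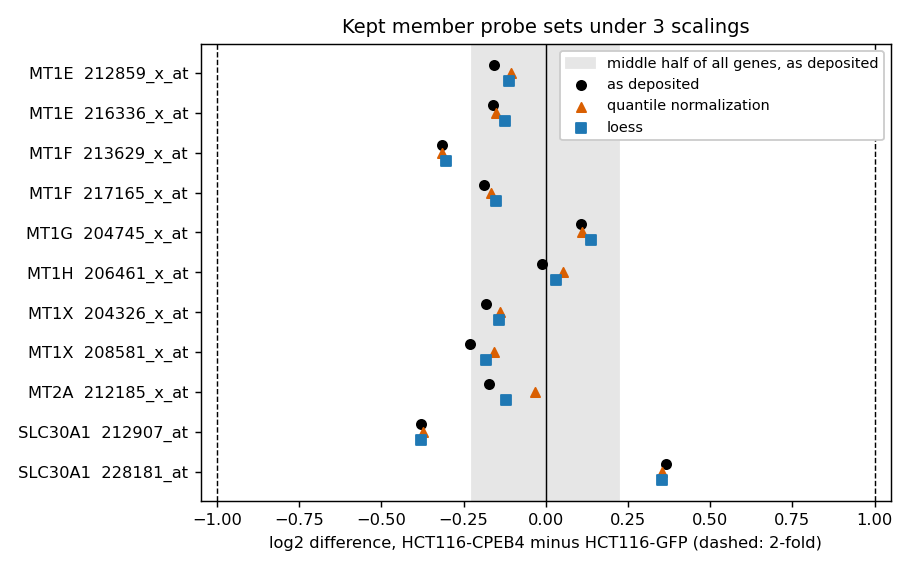
Log2 difference (HCT116-CPEB4 minus HCT116-GFP) of the 11 kept member probe sets as deposited (circles), after quantile normalization (triangles) and after loess (squares), with the interquartile range of all genes, −0.23 to 0.22, in grey and 2-fold as dashed lines. MT1H crosses 0 between scalings, and the 2 SLC30A1 probe sets lie on opposite sides of 0 under all 3.

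Other metallothioneins were measured in 3 of 11 listed genes, and none passed 2-fold. MT1HL1, a gene outside the cluster that resembles MT1H, read 26830 and 18432 at its only probe set, also one with the _x_at suffix. Its log2 difference of −0.54 was below that of every member metallothionein, and it remained at −0.47 after quantile normalization and −0.50 after loess. MT3, known from the brain, read 138 and 190 (0.46), and MT4, known from stratified epithelium, read 59.3, under the dim filter, and 77.8 (0.39).

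The zinc sensor MTF1 did not differ by 2-fold at any of its 3 probe sets. Its brightest read 943 and 893 (−0.08), and the others read 267 and 300 (0.17) and 136 and 244 (0.85). The mean over the 3 was 0.31, so its direction is not settled.

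Zinc exporters and vesicle loaders of the SLC30 family other than SLC30A1 were measured in 7 of 9 genes, with 4 above 0, 3 below and none past 2-fold. Their median log2 difference was 0.06, and −0.02 with the mean over probe sets. SLC30A9 read 3458 and 3696 (0.10). SLC30A5, which loads zinc into the early secretory pathway, read 2633 and 2521 (−0.06), with 5 probe sets from −0.37 to 0.34. SLC30A7, of the Golgi, read 1022 and 1062 (0.06), with another probe set at −0.87. SLC30A8 came nearest to 2-fold, at 53.7 and 106 (0.98), but its other probe set read 76.1 and 44.4 (−0.78); it is named after its values were seen.

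Zinc importers of the SLC39 (ZIP) family were measured in 12 of 14 genes, with 5 above 0 and 7 below, and a median of −0.04. SLC39A5 was the 1 gene past 2-fold, at 46.5 and 169 (1.86), from under the dim filter on the HCT116-GFP array. Under the stricter filter, an intensity of 377 or the 75th percentile of all values, it was not measured. The 3 brightest importers were each lower by a small amount. SLC39A6 read 11840 and 10369 (−0.19), with 4 probe sets from −0.30 to 0.18. SLC39A14, a zinc and manganese importer, read 7163 and 6527 (−0.13), with 0.69 at a dim second probe set, and SLC39A10 read 3983 and 3595 (−0.15). In the other direction, SLC39A4 read 2581 and 3050.0 (0.24) and SLC39A7 read 1294 and 1712 (0.40), both named after their values were seen.

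Copper handling genes were measured in 13 of 14, with 9 above 0, 4 below, none past 2-fold and a median of 0.08. SOD1, the copper and zinc superoxide dismutase, read 29497 and 29837 (0.02), at an intensity in the range of the metallothioneins. CUTA read 7289 and 8294 (0.19), and COX11, a copper chaperone of cytochrome oxidase, read 5278 and 5597 (0.08). With the mean over probe sets 1 gene passed 2-fold, ATP7A, a copper exporter, whose probe sets read 387 and 292 (−0.41) and 12.2 and 89.1 (2.87).

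Stress genes that also respond to metals were measured in 11 of 13, with 4 above 0, 7 below, none past 2-fold and a median of −0.11. The redox enzymes TXNRD1, at 16049 and 13028 (−0.30), and NQO1, at 14497 and 12374 (−0.23), read lower for HCT116-CPEB4. The other kept probe sets of NQO1 differed by −0.28 and −0.59. The co-chaperone BAG3 read higher, at 4424 and 5875 (0.41). The cystine transporter SLC7A11, named after its values were seen, came nearest to 2-fold at 1390.1 and 710.3 (−0.97). Glucocorticoid-responsive genes were measured in 7 of 9, with 2 above 0, 5 below, none past 2-fold and a median of −0.49. ERRFI1 read 26658 and 20277 (−0.39) and KLF9 read 956 and 669 (−0.52), while FKBP5, which dampens the glucocorticoid receptor, read 4393 and 4402 (0.00). The other kept probe sets of KLF9 read 595 and 340 (−0.81) and 35.3, under the dim filter, and 82.0 (1.22). With the mean over probe sets the median of these genes was −0.036.

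**Figure D4:**
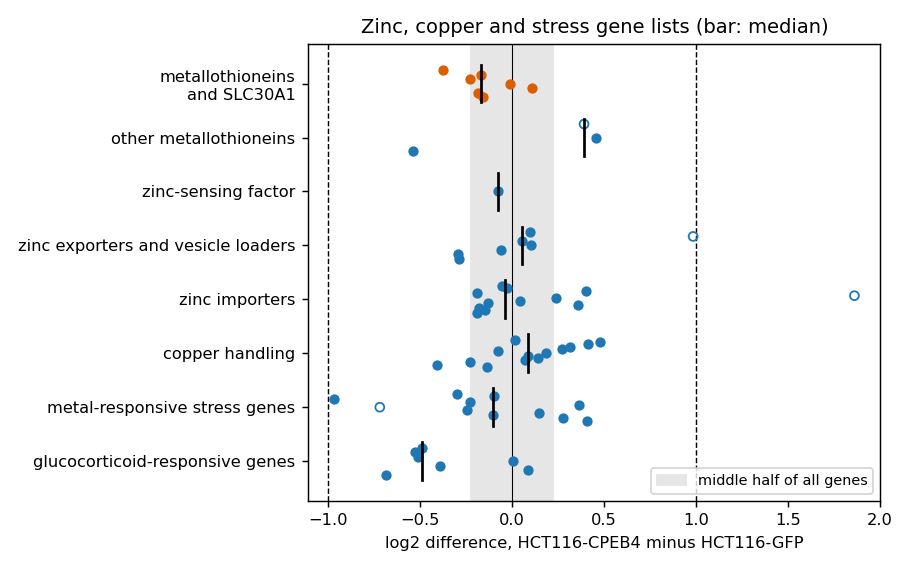
Log2 difference (HCT116-CPEB4 minus HCT116-GFP) of each measured gene of the members (top row) and of 7 lists of zinc, copper, stress and glucocorticoid-responsive genes, with a bar at each median and the interquartile range of all genes in grey. Open circles have an array under the dim filter. The members run from −0.38 to 0.11, and SLC39A5 is the 1 gene beyond the dashed 2-fold lines.

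The genes that flank the cluster on chromosome 16 were set beside it. Of the 5 nearest protein-coding genes on each side, 7 were measured, with 3 above 0, 4 below and a median of −0.07. Next to the cluster, BBS2, a protein of the primary cilium, read 1442 and 1106 (−0.38) on the side of MT4. NUP93, a nuclear pore protein, read 2544 and 2375 (−0.10) on the side of MT1X. Beyond them, OGFOD1 read 1838 and 1879 (0.03), NUDT21 read 7560 and 7185 (−0.07) and HERPUD1 read 5418 and 5042 (−0.10). SLC12A3 read 48.5 and 85.6 (0.82), the first under the dim filter. NLRC5, the activator of MHC class I genes, was the 1 neighbour past 2-fold, at 84.8 and 251 (1.57).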

How the data were processed

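Total RNA of 2 HCT116 cultures was measured on 1 array each. The authors' deposited table holds linear intensities per probe set, and Partek is named, with no version, in the submitters' processing notes. The sources used here give no account of how probes were summarised, corrected for background or scaled. The 2 columns have equal means of 499.9 after the lowest and highest 2% of values are removed, so differences tied to brightness may remain. Probe sets were named through the platform annotation, with symbols updated by Entrez identifier to RefSeq (GRCh38.p14). RefSeq also gave the chromosomes, gene order, gene types, transcript identifiers and promoter sequences. By this naming 41091 have 1 gene, 1801 several and 11777 are unnamed here, and 41037 were found in RefSeq. Log2 values were taken without a pseudocount, with pandas 2.3.3 and numpy 2.4.6, and loess was run with statsmodels 0.14.6. The code was tested on simulated data. A size of 2-fold was used for counts. The members and lists were chosen with earlier results of these data known. The rule for named genes took all members and, from each zinc, copper, stress and glucocorticoid list (not the cell type markers), the 3 brightest measured genes and any past 2-fold, plus the nearest neighbours of the cluster. Protein identity between members was planned but not analysed here. Alternatives were no filter, a stricter filter, quantile normalization, loess, a pseudocount of 50, the mean over probe sets, leaving out probe sets ending in _x_at, and platform symbols. With 2 arrays, their number sets the precision.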

Additional observations from a re-analysis of the deposited data

How the results depend on the processing

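No measured member gene passed 2-fold in any of the 8 alternatives. The median of the member genes ran from −0.38, without probe sets ending in _x_at and then from SLC30A1 alone, to −0.11 after quantile normalization. A value is said to have moved when it shifted by more than 0.27, the median gap between the 2 brightest probe sets of a gene, and a count or percentage when it shifted by over 1.5 times. With the mean over probe sets, SLC30A1 moved to −0.0065, MTF1 to 0.31 and the glucocorticoid-responsive median to −0.036, and 1 copper gene was higher by 2-fold. Without a filter, 1 zinc exporter was higher and 1 lower, 2 importers and 1 glucocorticoid-responsive gene were higher, and 8.91% of all genes were higher and 9.48% lower. Under the stricter filter, 0 importers were higher, the other metallothioneins stood at −0.54 from MT1HL1 alone, and 0.473% of all genes were higher and 0.165% lower. With a pseudocount of 50 these were 1.22% and 1.20%. Causes were not tested, apart from fewer genes under a filter. No paired analysis was possible because each group has 1 array. Dim values, as at MT1M and 1 probe set of MT1G, limit what can be said of those genes.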
